A study of Mus musculus with 12 samples.

Results

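CD11c+ interstitial macrophages (IMs) were set against CD11c- IMs in 8 of the 12 RNA-Seq libraries of the series, 4 of each population. The remaining 4 libraries were alveolar macrophages (AMs), used here only as a further level to compare with. Libraries were paired by the prefix of their titles, so that each of the 4 pairs held a CD11c+ and a CD11c- IM library of one genotype and one replicate number, with 2 pairs labelled Il9r-/- and 2 pairs WT. All mice were of the C57BL/6 background and carried B16 melanoma, a mouse tumour cell line given into a vein so that it seeds the lung. Il9r encodes the receptor of the cytokine IL-9. Live cells of perfused lungs that stained for CD64 and MerTK, surface proteins of macrophages, were sorted into AMs and the IM populations by Siglec-F and CD11c. Age and sex were not given in the labels, and nothing beyond the replicate number stated which cells came from which mouse.

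Interstitial macrophages live in the lung tissue around airways, vessels and nerves, whereas AMs live in the air spaces, where GM-CSF and the nuclear receptor PPARg maintain them and surfactant lipid is their main load. IMs of the resting lung are commonly divided into Lyve1-high, MHC class II-low cells along blood vessels and Lyve1-low, MHC class II-high cells that present antigen. CD11c, encoded by Itgax, is an integrin chain shared by AMs, dendritic cells and a share of IMs. Dendritic cells carry antigen to lymph nodes and, when mature, express Ccr7, Fscn1 and the chemokines Ccl17 and Ccl22.

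The values below are CPM, a gene's share of the counts of its library, scaled by TMM, a normalization that assumes that most genes do not differ. The 4 values given for a population are those of the libraries labelled Il9r-/- replicates 1 and 2 and WT replicates 1 and 2. Values in brackets after a gene name are log2 fold changes of CD11c+ over CD11c- IMs. Each gene was tested with edgeR's quasi-likelihood test in a fit with a term for each pair, and p-values were adjusted over all genes by the Benjamini-Hochberg method, with a threshold of 0.05. The 8 libraries held 26988617 to 41606050 counts. Itgax, the gene of the sorted CD11c, checked the labels of the populations. It had 437, 302, 424 and 334 CPM in CD11c+ IMs, against 41, 37.4, 27.9 and 54.1 CPM in CD11c- IMs (log2 fold change 3.28 ± 0.24 (SE), adjusted p = 0.000577). Of the other sorted proteins, the genes Mertk (1.38) and Siglecf (0.94) were also higher in CD11c+ IMs, and Fcgr1, the CD64 gene, stood at 0.42 (adjusted p = 0.133). Il9r went against the labels. It had 2.59 to 6.82 CPM in the 6 libraries labelled Il9r-/- and 0.158 to 0.75 CPM in 5 of the 6 WT libraries, but 6.47 CPM in CD11c- IMs of WT replicate 2. Which exons the Il9r-/- allele lacks is not given in the sources used here, and the genotypes are therefore named as labelled. Xist, an RNA of the silenced X chromosome of female cells, had 12.5 to 27 CPM in the 3 libraries of WT replicate 1 and at most 0.0478 CPM in the other 9. The fold changes and tests of CD11c+ against CD11c- IMs were computed within pairs unless another fit is named. Both members of a pair had the same labelled genotype and lay in the same of these ranges for Xist, and for Il9r except in WT replicate 2.

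CD11c+ IMs differed from CD11c- IMs in 2811 of 14528 genes (19.3%). Here 1359 genes were higher in CD11c+ IMs (9.35% of genes tested) and 1452 lower (9.99%). The lower genes differed by more, with a median log2 fold change of -2.44, against 0.78 for the genes that were higher. At least 3 on the log2 scale was reached by 76 of the higher and 594 of the lower genes. All 4 pairs had the same direction for 2792 of the 2811 genes. The 4 CD11c+ and 4 CD11c- libraries did not overlap for 1903 of them. Over all genes tested, called or not, 7.96% had all CD11c+ libraries above and 12.2% all below the CD11c- libraries, and 19.9% were higher and 24.3% lower in every pair. With 3 pairs the counts fell: without the pair labelled Il9r-/- replicate 1 there were 675 higher and 822 lower genes, without replicate 2 of that label 962 and 1107, without WT replicate 1 565 and 721, and without WT replicate 2 615 and 671. In a principal component analysis of log2 CPM the first component, 52.0% of the variance, separated the populations. The second component, 15.5% of the variance, separated the replicate numbers: all replicate 1 libraries lay at -75.0 to -20.4 and all replicate 2 libraries at 26.9 to 68.6, in both genotypes and both populations.

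**Figure D1:**
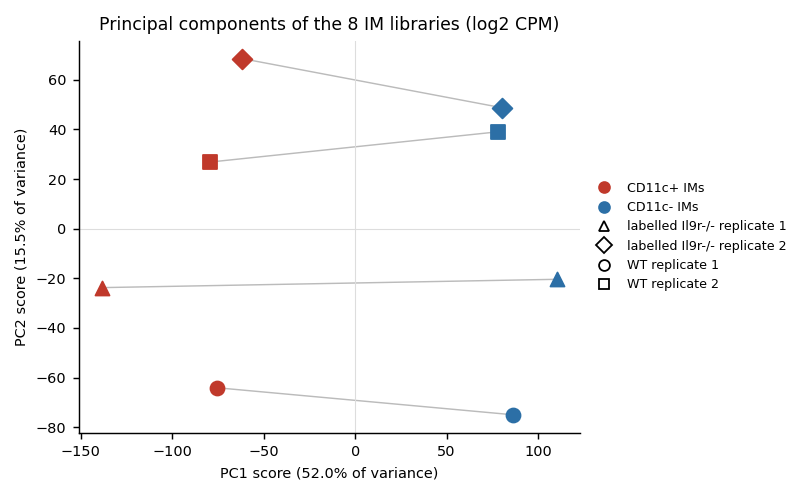
First and second principal components of log2 CPM in the 8 IM libraries, with the share of variance of each component on its axis; colour gives the population and the symbol the labelled genotype and replicate. CD11c+ and CD11c- IMs lie apart on the first component (52.0%), and replicate 1 and replicate 2 libraries lie apart on the second (15.5%).

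The mean level in AMs placed the genes into an order. Of the 1359 genes higher in CD11c+ IMs, 758 (55.8%) had a still higher mean in AMs, 291 (21.4%) a mean between the IM populations, and 310 (22.8%) a mean below both. Of the 1452 genes lower in CD11c+ IMs, 1053 (72.5%) had a mean in AMs below both IM populations, 349 (24%) between and 50 (3.44%) above both. Over all genes tested these shares were 36.8% above both, 17.5% between and 45.7% below both. CD11c+ IMs thus had the highest mean of the 3 populations for the groups of 291 and 310 genes, and Ccl17 and Ccl22 were in the group of 291.

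Among genes of at least 20 CPM in CD11c+ IMs, the largest increases were those of the chemokines Ccl17 and Ccl22, the ligands of the receptor CCR4 on T helper 2, regulatory and skin-homing T cells. Ccl17 had 119.9, 154, 97.6 and 116 CPM in CD11c+ IMs, against 2.47, 2.06, 1.74 and 1.93 CPM in CD11c- IMs (log2 fold change 5.92 ± 0.15 (SE), adjusted p = 1.11e-05). Ccl22 had 428, 701, 156 and 374 CPM in CD11c+ IMs, against 7.3, 13.2, 3.75 and 7.98 CPM in CD11c- IMs (log2 fold change 5.67 ± 0.15 (SE), adjusted p = 1.11e-05). The lowest CD11c+ library was far above the highest CD11c- library for both genes, and the AM mean was 4.48 CPM for Ccl17 and 13.5 CPM for Ccl22. Between them on the same strand of chromosome 8 lies Cx3cl1, which encodes the membrane-bound chemokine fractalkine. Cx3cl1 had 38.5, 46.3, 15.6 and 26.6 CPM in CD11c+ IMs, against 16.4, 6.68, 5.4 and 4.35 CPM in CD11c- IMs (log2 fold change 2.07 ± 0.28 (SE), adjusted p = 0.00491). Here the populations overlapped by 1 library each, and AMs had a higher mean than both (106 CPM). In mm10 the 3 genes follow one another at chr8:94745684-94751388 (Ccl22), chr8:94772180-94782426 (Cx3cl1) and chr8:94810453-94812036 (Ccl17). The flanking genes in the table did not share the increase. Arl2bp was lower in CD11c+ IMs (-0.73, adjusted p = 0.0107), and Rspry1 (0.28), Pllp (-1.93), Ciapin1 (-0.26), Coq9 (-0.08) and Polr2c (0.02) did not pass the test.

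The 250 bases before the RefSeq start of each of these genes (GRCm38.p6, plus strand) are shown because the genes lie side by side and were all higher. They span chr8:94745434-94745683 for Ccl22, chr8:94771930-94772179 for Cx3cl1 and chr8:94810203-94810452 for Ccl17. Capitals mark matches to the 4 motifs searched (NF-kB, AP-1, PU.1 and the TATA box) on both strands in the 300 bases that run from 250 before to 50 after the start.
Ccl22: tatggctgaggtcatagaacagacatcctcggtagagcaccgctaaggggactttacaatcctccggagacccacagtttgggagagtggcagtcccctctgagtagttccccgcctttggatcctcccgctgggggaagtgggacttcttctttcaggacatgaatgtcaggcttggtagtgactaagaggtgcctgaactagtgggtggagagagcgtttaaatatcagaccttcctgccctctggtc
Cx3cl1: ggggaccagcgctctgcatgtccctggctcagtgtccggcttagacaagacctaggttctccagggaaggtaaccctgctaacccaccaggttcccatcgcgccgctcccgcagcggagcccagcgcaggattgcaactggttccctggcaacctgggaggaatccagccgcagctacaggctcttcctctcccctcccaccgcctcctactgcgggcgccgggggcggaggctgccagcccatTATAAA
Ccl17: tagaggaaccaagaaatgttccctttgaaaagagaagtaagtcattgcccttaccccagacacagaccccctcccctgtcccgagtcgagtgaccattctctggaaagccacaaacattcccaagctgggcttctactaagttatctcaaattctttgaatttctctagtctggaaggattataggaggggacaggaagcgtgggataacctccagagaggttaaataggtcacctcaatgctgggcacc
The only match was to the TATA box, in Cx3cl1 at position 245 counted from 1 at the 5′ end. RefSeq held 13990 promoters of 11013 of the genes tested. The NF-kB consensus stood in a promoter of 14.8% of the higher genes, 13.2% of the lower genes and 12.4% of all genes, and in 10.4% of all promoters. For the AP-1 motif TGANTCA, in which N is any base, the shares were 9.25%, 8.45% and 6.64%, with 5.56% of all promoters. The PU.1 motif AGGAAGT was found in 13.9% of the higher genes, 10.4% of the lower genes and 11.0% of all genes, with 9.31% of all promoters. The TATA box, read as TATAAA, was found in 11.5% of the higher genes, 13.6% of the lower genes and 9.38% of all genes, with 7.79% of all promoters. Letters of the NF-kB and PU.1 motifs can overlap.

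Ccl17 and Ccl22 belonged to a list of 18 genes of mature, migratory dendritic cells, of which 15 were higher in CD11c+ IMs and 0 lower, with a median log2 fold change of 2.07, against 0.00 over all genes tested. Il12b encodes the p40 chain of IL-12 and IL-23 and had 251, 313, 31.2 and 151 CPM in CD11c+ IMs, against 5.61, 4.06, 1.63 and 3.13 CPM in CD11c- IMs (log2 fold change 5.47 ± 0.32 (SE), adjusted p = 0.000393). Fscn1, which bundles actin, had 261, 578, 119 and 236 CPM in CD11c+ IMs, against 23.9, 17.7, 13.3 and 15.8 CPM in CD11c- IMs (log2 fold change 3.91 ± 0.31 (SE), adjusted p = 0.000747). The populations did not overlap for either gene. Cacnb3, a calcium channel subunit (3.98), Apol7c (4.77), the NF-kB subunit Relb (1.04), Socs2 (2.14) and Cd200 (1.48) were higher too. Ccr7, the receptor that guides these cells to lymph nodes, had 653, 1413, 350.0 and 935 CPM in CD11c+ IMs, against 101, 331, 101 and 732 CPM in CD11c- IMs (log2 fold change 1.79 ± 0.38 (SE), adjusted p = 0.0221). Its populations overlapped, and it missed the threshold without the pairs of WT replicate 1 (adjusted p = 0.0808) or labelled Il9r-/- replicate 1 (0.0576) or 2 (0.0973). The members that did not pass were Cd40 (0.51, adjusted p = 0.0569), Il4i1 (2.00, 0.0971) and Birc3 (-0.05, 0.779). Summed over the list, the level was 2951, 5809, 1611 and 3161 CPM in CD11c+ IMs, against 636, 1133, 549 and 1469 CPM in CD11c- IMs and 385 to 419.9 CPM in AMs. The lowest CD11c+ sum, of WT replicate 1, was close to the highest CD11c- sum, of WT replicate 2, and every pair differed in the same direction.

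Genes of conventional dendritic cells were higher in the same libraries. Of 13 such genes 10 were higher and 0 lower (median log2 fold change 1.44), and 5 were higher without the WT replicate 2 pair. Flt3, the growth factor receptor of dendritic cell precursors, had 42.9, 115, 17.9 and 66.1 CPM in CD11c+ IMs, against 4.97, 12.9, 1.71 and 10.8 CPM in CD11c- IMs (log2 fold change 3.09 ± 0.17 (SE), adjusted p = 0.000298). Xcr1 and Clec9a, markers of the cross-presenting type 1 cells, were low in level. Xcr1 had 10.4, 38.8, 1.95 and 20.7 CPM in CD11c+ IMs, against 1.52, 1.85, 0.471 and 1.84 CPM in CD11c- IMs (log2 fold change 3.26 ± 0.39 (SE), adjusted p = 0.00301), and Clec9a had 9.76, 16.3, 2.11 and 11.5 CPM in CD11c+ IMs, against 0.808, 0.206, 0.471 and 0.478 CPM in CD11c- IMs (log2 fold change 4.12 ± 0.66 (SE), adjusted p = 0.00833). Zbtb46, a transcription factor of conventional dendritic cells, had a log2 fold change of 1.72 (adjusted p = 0.0276). None of these defining markers was at 0 in any CD11c+ library. The summed level of the list was 488 to 1128 CPM in CD11c+ IMs and 246 to 378 CPM in CD11c- IMs, with no overlap. It was 520.4 to 609 CPM in AMs, above every CD11c- library and above the lowest CD11c+ library, and the member Naaa had a mean of 506 CPM in AMs. In bulk RNA more cells of a type in the gate cannot be told apart from more RNA per cell, and the part of dendritic cells in the increase of Ccl17 and Ccl22 was not tested.

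**Figure D2:**
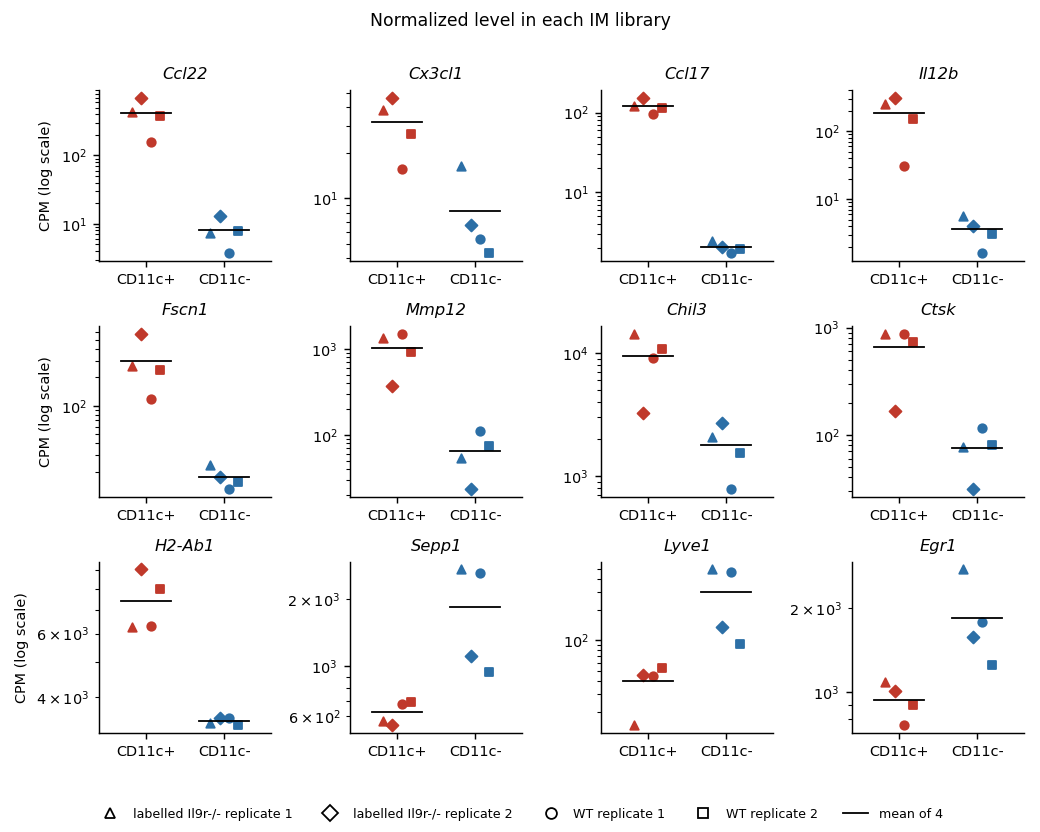
CPM (log scale) of 12 genes in each IM library, CD11c+ IMs left and CD11c- IMs right in each panel; symbols give the labelled genotype and replicate and lines the mean of 4 libraries. Ccl22, Ccl17, Il12b, Fscn1, Mmp12, Chil3, Ctsk and H2-Ab1 lie higher and Sepp1, Lyve1 and Egr1 lower in CD11c+ IMs without overlap, and Cx3cl1 overlaps.

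Genes typical of AMs formed the second large block of increases. Of 22 AM genes 19 were higher in CD11c+ IMs and 0 lower (median log2 fold change 1.70). Chil3, which encodes the chitinase-like protein Ym1, took the most counts and had 14418, 3262, 9181 and 10746 CPM in CD11c+ IMs, against 2076, 2709, 787 and 1534 CPM in CD11c- IMs (log2 fold change 2.46 ± 0.55 (SE), adjusted p = 0.0262). The lowest CD11c+ library, labelled Il9r-/- replicate 2, was not far above the CD11c- library of its pair. Chil3 missed the threshold without WT replicate 1 (adjusted p = 0.0888), without WT replicate 2 (0.102) and without the pair labelled Il9r-/- replicate 1 (0.0853). Lpl, a lipase that releases fatty acids from lipoproteins, had 1480.4, 643, 1241 and 765 CPM in CD11c+ IMs, against 339.8, 225, 323 and 217 CPM in CD11c- IMs (log2 fold change 1.89 ± 0.15 (SE), adjusted p = 0.000724). Car4 (2.17), a carbonic anhydrase, Plet1 (2.29), F7 (2.59), Atp6v0d2 (2.56), Krt79 (1.75) and Pparg (1.71) were among the other increases. Ear1 (1.03) and Ear2 (2.07) were also higher, but these ribonuclease genes are near-identical copies and share reads. The 3 genes that did not pass were Marco (0.63), Bhlhe41 (0.11) and Wfdc21 (0.89). Marco had 191, 96, 119 and 74.6 CPM in CD11c+ IMs, against 107, 41.4, 302 and 26.6 CPM in CD11c- IMs, with the highest CD11c- value in WT replicate 1 alone. The summed level of the AM genes was 20627, 5279.9, 12753 and 13317 CPM in CD11c+ IMs, against 3434, 3482, 1916 and 2287 CPM in CD11c- IMs. It was 43526 to 56108 CPM in AMs, so that CD11c+ IMs lay between the others in every library. Siglec-F divided AMs from IMs in the sort, and the part of AMs in the CD11c+ gate was not tested.

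The GM-CSF receptor and the factors that act with it were higher with the AM genes: 9 of 12 rose and 0 fell (median log2 fold change 0.90). The signalling chain Csf2rb had 334, 376, 297 and 303 CPM in CD11c+ IMs, against 115, 196, 101 and 146 CPM in CD11c- IMs (log2 fold change 1.31 ± 0.16 (SE), adjusted p = 0.00287). Its partner Csf2ra (0.95), the gene Csf2rb2 (1.68) and the transcription factors Bhlhe40 (1.74), Cebpa (0.88), Irf5 (0.71) and Spi1 (0.59), which encodes PU.1, were among the increases. With 1 pair left out at a time 7 or 8 members were higher. Without WT replicate 1, WT replicate 2 or the pair labelled Il9r-/- replicate 1, the threshold was missed by Spi1 (adjusted p = 0.144, 0.133 and 0.139) and Csf2ra (0.0620, 0.0559 and 0.0539). Spi1 also missed it at a mean of at least 5 CPM (0.0534) and with library totals alone (0.0982). Of 16 genes of the IL-9 receptor and the JAK-STAT pathway below it, 6 were higher and 0 lower (median 0.32), and 3 were higher without the WT replicate 1 pair. The 6 were the kinases Jak2 (1.10) and Tyk2 (0.67), Stat5a (0.73), the kinase Pim1 (0.71) and the feedback inhibitors Cish (1.51) and Socs2 (2.14). Il9r itself had 4.34, 4.19, 0.158 and 0.495 CPM in CD11c+ IMs, against 2.59, 6.09, 0.75 and 6.47 CPM in CD11c- IMs, and its difference of -1.26 on the log2 scale did not pass the test (adjusted p = 0.298) and took opposite directions among the pairs.

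Of 16 genes of lipid-laden macrophages 11 were higher and 0 lower (median 1.28). Trem2, a lipid receptor, had 237, 93.7, 301 and 170.1 CPM in CD11c+ IMs, against 122, 42, 140.3 and 53.1 CPM in CD11c- IMs (log2 fold change 1.26 ± 0.13 (SE), adjusted p = 0.00177), and the populations overlapped across pairs although all 4 pairs had the same direction. Spp1, encoding osteopontin (1.85), the lipid chaperones Fabp5 (1.97) and Fabp4 (1.68), the galectin Lgals3 (1.54) and the acid lipase Lipa (1.30) were other members that rose, whereas Gpnmb had 0.08 (adjusted p = 0.764). Outside the list, the lysosomal protease Ctsd (1.60), the saposin precursor Psap (1.16) and the ferritin chain Fth1 (1.16) were among the higher genes with the most counts. Of 9 cholesterol efflux genes 4 were higher, the sterol exporter Abcg1 (1.70) and the oxysterol receptor Nr1h3 (1.38) among them. Of 15 cholesterol synthesis genes 6 were higher by small amounts, with Mvd at 0.81 the largest, and 2 without WT replicate 2 or the pair labelled Il9r-/- replicate 1 and 3 without WT replicate 1.

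Of 10 genes of macrophage fusion and osteoclasts 5 were higher and 1 lower (median 1.96). Dcstamp, which encodes a membrane protein required for cell fusion, had 67.3, 69.1, 62.6 and 55.8 CPM in CD11c+ IMs, against 1.18, 3.37, 2.46 and 2.41 CPM in CD11c- IMs (log2 fold change 4.85 ± 0.28 (SE), adjusted p = 0.000388). Ctsk, the collagen-degrading protease of osteoclasts, had 881, 166, 870.4 and 735 CPM in CD11c+ IMs, against 76.9, 31.3, 115 and 80.3 CPM in CD11c- IMs (log2 fold change 3.05 ± 0.20 (SE), adjusted p = 0.000491). Both were separated between the populations, and the library labelled Il9r-/- replicate 2 was the lowest of the CD11c+ IMs for Ctsk. Acp5, the tartrate-resistant acid phosphatase, was higher (2.19), and Mmp9 was the member that was lower (-2.06). Among 16 matrix metalloproteinases and inhibitors 6 were higher and 4 lower. Mmp12, the macrophage elastase, had 1318, 369, 1500.4 and 907 CPM in CD11c+ IMs, against 53.8, 23.7, 112 and 74.1 CPM in CD11c- IMs (log2 fold change 4.02 ± 0.21 (SE), adjusted p = 0.000298). Mmp19 (2.11), Mmp13 (1.96) and the membrane-bound Mmp14 (1.39) rose with it, and Mmp3 (-3.91), Timp3 (-3.38) and Mmp2 (-1.63), which fibroblasts express, were lower.

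Genes of antigen presentation to T helper cells were higher in CD11c+ IMs. Of 10 MHC class II genes 7 were higher and 0 lower (median 0.88). H2-Ab1 had 6272, 9057, 6313 and 7969 CPM in CD11c+ IMs, against 3379.8, 3488, 3493 and 3344 CPM in CD11c- IMs (log2 fold change 1.13 ± 0.15 (SE), adjusted p = 0.00416), with no overlap. The invariant chain Cd74 (0.85), the peptide loading chain H2-DMb1 (1.35) and the transactivator Ciita (0.51) were other members that rose. In the fit of all 12 libraries with the pairs kept, the log2 fold changes stayed close but missed the threshold for H2-Ab1 (1.10, adjusted p = 0.0750), H2-Eb1 (1.03, 0.0844), Cd74 (0.83, 0.145) and H2-Aa (0.88, 0.155). Cd74 also missed it without WT replicate 2 (0.0569) and without the pair labelled Il9r-/- replicate 1 (0.0649), and H2-Aa without WT replicate 2 (0.0505). The summed level was 27925, 39533, 27729 and 34667 CPM in CD11c+ IMs, against 16458, 17460.4, 17370.0 and 17386 CPM in CD11c- IMs, and the populations did not overlap. Among 18 checkpoint and costimulation genes 12 were higher and 1 lower (median 0.87), and 7 were higher without the WT replicate 2 pair. The ligands of the receptor PD-1 were both higher: Cd274 had 170.4, 178, 176 and 189 CPM in CD11c+ IMs, against 48.6, 63, 46.8 and 79.4 CPM in CD11c- IMs (log2 fold change 1.65 ± 0.15 (SE), adjusted p = 0.00119), and Pdcd1lg2 had 14.8, 21.9, 36.3 and 25.2 CPM in CD11c+ IMs, against 2.59, 3.88, 3.45 and 4.23 CPM in CD11c- IMs (log2 fold change 2.78 ± 0.22 (SE), adjusted p = 0.000747). Havcr2, encoding TIM-3 (1.87), Tnfsf9 (1.51) and its receptor Tnfrsf9 (2.33), Tnfsf4 (3.05) and Cd86 (0.61) rose, and the inhibitory receptor Vsig4 was lower (-2.70). Cd86 missed the threshold without WT replicate 2 (adjusted p = 0.154) and without the pairs labelled Il9r-/- replicate 1 (0.0904) or 2 (0.138). It also missed it with library totals alone (0.186), at a mean of at least 5 CPM (0.0705) and in the fit of all 12 libraries with the pairs kept (0.132). The dendritic cell genes moved with these lists, and their part in them was not tested.

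Of 32 cytokine and growth factor genes 14 were higher and 2 lower (median 0.60), with 7 higher without WT replicate 1 and 6 without WT replicate 2. Besides Il12b, the activin chain Inhba (2.20), Areg (1.71), Il1a (1.5), Hgf (1.35) and the IL-1 receptor antagonist Il1rn (0.97) were higher. Il1rn missed the threshold without WT replicate 1 (adjusted p = 0.113), WT replicate 2 (0.0874) or the pair labelled Il9r-/- replicate 1 (0.0957). Il1b had 1122, 2685, 1045 and 1992 CPM in CD11c+ IMs, against 1374, 4441, 556 and 2108 CPM in CD11c- IMs, and its log2 fold change of -0.02 did not pass the test (adjusted p = 0.968). Tgfb2 (-2.44) and Vegfb (-0.79) were lower. Of 24 chemokine ligands 8 were higher and 5 lower (median 0.26), with 2 lower without WT replicate 1 and 3 without either pair labelled Il9r-/-. After Ccl17, Ccl22 and Cx3cl1 the increases were those of Cxcl16 (2.01), Cxcl9 (1.83), Ccl5 (1.42), Cxcl14 (1.18) and Ccl6 (0.83). Ccl6 missed the threshold without WT replicate 1 (adjusted p = 0.102), WT replicate 2 (0.140) or the pair labelled Il9r-/- replicate 1 (0.128). Cxcl12 (-3.42), Cxcl15 (-3.24), Cxcl13 (-3.08), Pf4 (-1.34) and Ccl7 (-0.95) were lower, Ccl7 in 3 of the 4 pairs.

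Of 12 arginine and polyamine genes 3 were higher and 0 lower. Arg1, arginase 1, had 269, 188, 835 and 492 CPM in CD11c+ IMs, against 188, 89.3, 503 and 143 CPM in CD11c- IMs (log2 fold change 1.06 ± 0.20 (SE), adjusted p = 0.0136). Among CD11c+ IMs both values labelled Il9r-/- were below both WT values, the populations overlapped, and every pair had the same direction. Without the pair labelled Il9r-/- replicate 2 its adjusted p was 0.0530. The arginine transporter Slc7a2 rose by more (log2 fold change 2.57 ± 0.18 (SE), adjusted p = 0.000546). Nos2, the inducible nitric oxide synthase that competes with arginase for arginine, had 4.02, 7.24, 10.6 and 7.16 CPM in CD11c+ IMs, against 0, 0.0514, 0.386 and 4.35 CPM in CD11c- IMs (log2 fold change 4.73 ± 1.29 (SE), adjusted p = 0.0461), so that its increase rested on low values in CD11c- IMs other than WT replicate 2. It missed the threshold without WT replicate 1 (adjusted p = 0.153) and without the pairs labelled Il9r-/- replicate 1 (0.101) or 2 (0.146).

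**Figure D3:**
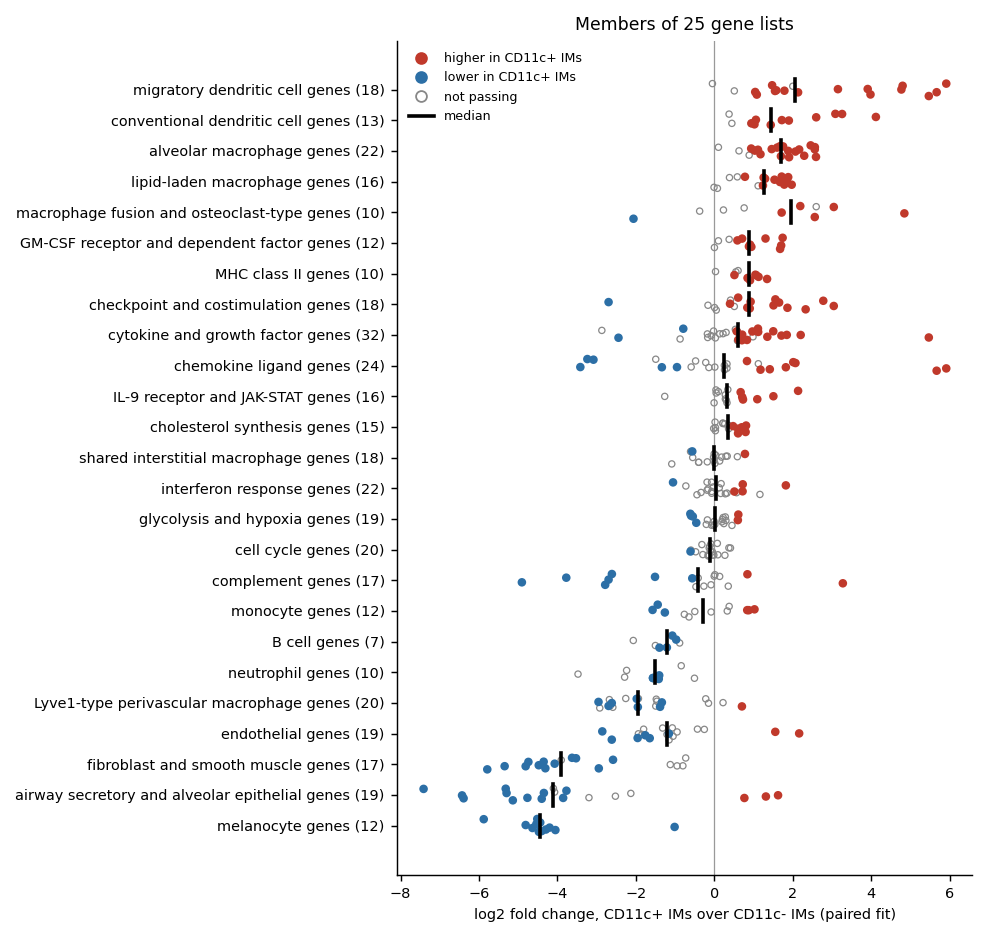
Log2 fold change of CD11c+ over CD11c- IMs for each tested member of 25 gene lists, with the number of members in brackets; filled points passed an adjusted p of 0.05, open points did not, and black bars are medians. The migratory dendritic cell, conventional dendritic cell and AM lists have most members above 0, and the melanocyte, epithelial and fibroblast lists have medians of -4.46, -4.10 and -3.90.

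Of 20 genes of Lyve1-type perivascular macrophages 7 were lower and 1, Igf1 (0.71), higher, with a median log2 fold change of -1.94. Lyve1, a receptor for hyaluronan, had 14.9, 45.7, 45.2 and 53.7 CPM in CD11c+ IMs, against 496, 136, 466 and 92.7 CPM in CD11c- IMs (log2 fold change -2.61 ± 0.71 (SE), adjusted p = 0.0483). It missed the threshold without WT replicate 1 (adjusted p = 0.179), without the pairs labelled Il9r-/- replicate 1 (0.0552) or 2 (0.113), at a mean of at least 5 CPM (0.0616) and with relative log expression factors (0.0501). Sepp1, the carrier of selenium in plasma, took more counts than any other member that passed and had 570.4, 548, 678 and 690.4 CPM in CD11c+ IMs, against 2714, 1107, 2615 and 943 CPM in CD11c- IMs (log2 fold change -1.38 ± 0.29 (SE), adjusted p = 0.0202). F13a1, coagulation factor XIII (-1.98), Cbr2 (-2.95), Vsig4 (-2.70), Gas6 (-1.95) and Pf4 (-1.34) were also lower. Folr2 (-2.59, adjusted p = 0.0578) and Cd163 (-2.65, 0.0801) did not pass, although all 4 pairs had the same direction for both. Of 14 efferocytosis genes, which serve the uptake of dying cells, 5 were higher and 2 lower (median 0.22). The receptors Axl (1.87), Mertk and Lrp1 (1.06) and the bridging protein Mfge8 (1.42) were among the higher members. Gas6, a ligand that bridges Axl and Mertk to dying cells, was lower, and the related ligand Pros1 stood at 0.09 (adjusted p = 0.731). Gas6 had 51.8, 75.4, 77.7 and 86.7 CPM in CD11c+ IMs, against 544, 162, 539 and 137 CPM in CD11c- IMs.

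The Lyve1-type genes differed by replicate number in CD11c- IMs. Their summed level in CD11c- IMs was 11746 and 12803 CPM in the replicate 1 libraries labelled Il9r-/- and WT, but 4674 and 3896 CPM in replicate 2. In CD11c+ IMs it was 1834 and 2961 CPM in replicate 1 and 2303 and 2823 CPM in replicate 2. A fit of all IM libraries let the difference between the populations vary with replicate number. Over all genes, it called 1331 higher and 1117 lower in the replicate 1 pairs, and 483 higher and 377 lower in the replicate 2 pairs. Both sets of calls share its estimate of the spread between libraries. In the replicate 1 pairs 16 of the 20 Lyve1-type genes were lower, with a median of -3.11. In the replicate 2 pairs 1 was lower and 1 higher, with a median of -0.81. Lyve1 had log2 fold changes of -4.12 in replicate 1 and -1.19 in replicate 2, a difference of 2.93 whose adjusted p was 0.238, and no member's difference passed the test. Across all genes only Ltf (log2 fold changes of -6.73 in replicate 1 and -1.24 in replicate 2, adjusted p of the difference 0.0372) and Slc34a2 (-10.90 and -1.96, 0.0387) passed, chosen after their values were seen. Slc34a2 had at most 1 count in the replicate 1 CD11c+ libraries, so that its fold change depends on the prior count. At an unadjusted p under 0.05 the difference was found for 1449 genes (9.97%). MHC class II genes were higher in both sets of pairs, 7 in replicate 1 and 6 in replicate 2. Of the AM genes 20 were higher in replicate 1 and 14 in replicate 2, and of the migratory dendritic cell genes 14 and 12. Without the WT replicate 1 pair 0 of the Lyve1-type genes were lower, without the pairs labelled Il9r-/- replicate 1 and 2 there were 3 and 2, and without WT replicate 2 there were 10. The labels do not say what the number marks.

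**Figure D4:**
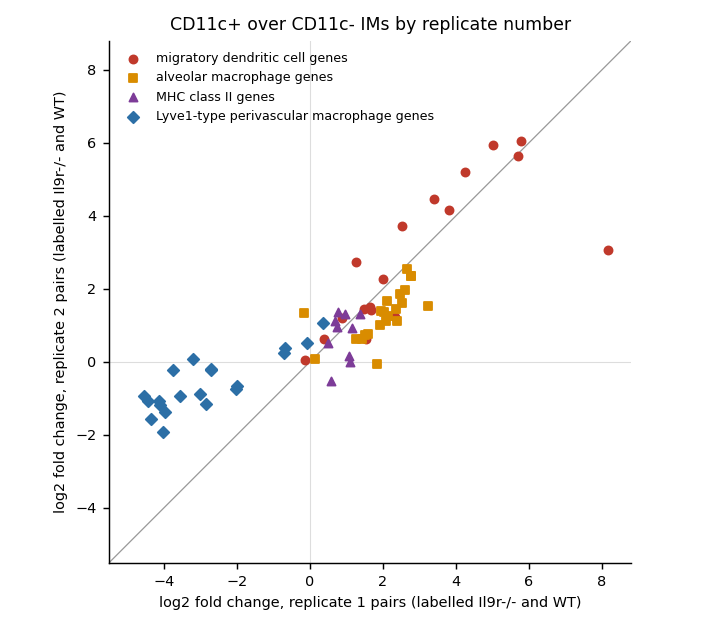
Log2 fold change of CD11c+ over CD11c- IMs in the replicate 1 pairs (horizontal) and replicate 2 pairs (vertical) for members of 4 gene lists. Each value rests on 2 pairs, both come from the same fit of all IM libraries, and the diagonal marks equal change. Lyve1-type genes have a median of -3.11 in replicate 1 and -0.81 in replicate 2, and most other points lie above 0 on both axes.

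Of 17 complement genes 7 were lower, 2 higher and 8 did not pass (median -0.41), with 2 lower without WT replicate 1 and 3 without either pair labelled Il9r-/-. C2, a protease of the classical pathway, had 6.45, 6.5, 9.9 and 5.94 CPM in CD11c+ IMs, against 53.3, 35.2, 84.2 and 38.4 CPM in CD11c- IMs (log2 fold change -2.78 ± 0.15 (SE), adjusted p = 0.000298). C4b (-2.61) and C5ar1 (-0.56) were also lower, as were Cfd (-4.91) and C1s1 (-3.77). The higher members were Cfb (0.84) and Itgax, the sort gene, which also encodes a chain of complement receptor 4. The C1q chains, which mark IMs against AMs, did not pass, with log2 fold changes of 0.14 for C1qb and 0.02 for C1qc and one close to 0 for C1qa. In the replicate 1 and the replicate 2 pairs they had opposite directions, with -0.49 and 0.49 for C1qa, -0.35 and 0.63 for C1qb, and -0.50 and 0.54 for C1qc, and adjusted p of the difference of 0.226 to 0.26. Of 18 genes shared by IMs 1 was higher, Cd63 (0.78), and 1 lower, C5ar1, with a median of 0.00, and Csf1r (-0.02) and Apoe (-0.01) were among those that did not pass.

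Of 12 melanocyte genes, which B16 cells express, 12 were lower in CD11c+ IMs (median -4.46), and 4 without the pair labelled Il9r-/- replicate 2. Dct, a melanin synthesis enzyme, had 15.2, 51.8, 264 and 118 CPM in CD11c+ IMs, against 3148, 1246, 3394 and 1215 CPM in CD11c- IMs (log2 fold change -4.64 ± 0.77 (SE), adjusted p = 0.0112). The summed melanocyte level was 71.7, 161, 865 and 359 CPM in CD11c+ IMs, against 7974, 3585, 9549 and 3696 CPM in CD11c- IMs and 89.2 to 360.1 CPM in AMs. All CD11c- libraries lay far above AMs, and of the CD11c+ libraries WT replicate 1 lay above them too. Of 19 epithelial genes 11 were lower (median -4.10), and 6 without WT replicate 2, led by secretory products of the airway. Scgb1a1, the club cell secretoglobin, had 39.3, 72, 59.2 and 42 CPM in CD11c+ IMs, against 3502, 2189, 344 and 1384 CPM in CD11c- IMs (log2 fold change -4.77 ± 0.67 (SE), adjusted p = 0.00662). The summed epithelial level was 341, 949.9, 428 and 691 CPM in CD11c+ IMs, against 7348, 3952, 1002 and 2407 CPM in CD11c- IMs. Scgb3a1 (-7.41), Bpifa1 (-6.39) and Cyp2f2 (-5.30) differed by more. Epcam (1.32), Cdh1 (1.63) and Napsa (0.77), which AMs also express (means of 133, 85.6 and 113 CPM), were higher. Of 17 fibroblast and smooth muscle genes 12 were lower and 0 higher (median -3.90), with Dcn at 0.176, 6.8, 5.11 and 6.05 CPM in CD11c+ IMs, against 153, 265, 180.3 and 225 CPM in CD11c- IMs (log2 fold change -5.79 ± 0.66 (SE), adjusted p = 0.00325) and Col1a1 at -4.74. Fibroblast sums were 22.9 to 109 CPM in CD11c+ IMs and 743 to 1106 CPM in CD11c- IMs, with no overlap.

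Neutrophil genes were lower in 5 of 10 cases and higher in 0 (median -1.51), B cell genes in 4 of 7 and 0 (median -1.21), and endothelial genes in 6 of 19, with 2 higher. Without WT replicate 2 the B cell genes had 1 lower member, and without WT replicate 1 or the pair labelled Il9r-/- replicate 1 the endothelial genes had 1. S100a9, a calcium-binding protein of neutrophils, had 159, 685, 61.8 and 381 CPM in CD11c+ IMs, against 869, 2317, 108 and 987 CPM in CD11c- IMs (log2 fold change -1.56 ± 0.26 (SE), adjusted p = 0.0088), and the populations overlapped. Of 15 T and NK cell genes 1 was higher, Il7r (1.35), and 1 lower, Gzmb (-0.64). These counts do not exceed the shares over all genes tested (9.35% higher and 9.99% lower). Il7r missed the threshold without WT replicate 1 (adjusted p = 0.121) or the pairs labelled Il9r-/- replicate 1 (0.0916) or 2 (0.0551). Gzmb missed it without WT replicate 1 (0.0831), WT replicate 2 (0.103) or the pair labelled Il9r-/- replicate 2 (0.0982). Of 9 mast cell, basophil and eosinophil genes 1 was higher and 3 lower (median -3.78). Mcpt4, a mast cell protease, had 0 counts in the 4 CD11c+ libraries and 1109 counts in the CD11c- libraries. It was also at 0 in CD11c- IMs labelled Il9r-/- replicate 1. Neutrophil sums were 689, 2398, 375 and 1447 CPM in CD11c+ IMs, against 3283, 7140.1, 443 and 3511 CPM in CD11c- IMs, so that replicate 2 held more in each genotype and population. Of the marker lists of other cell types, Mcpt4 was the only member at 0 in all CD11c+ libraries. The part of this RNA in the lower calls was not tested. The sort gate was on CD64 and MerTK, and the purity after the sort was not given in the sources used here.

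**Figure D5:**
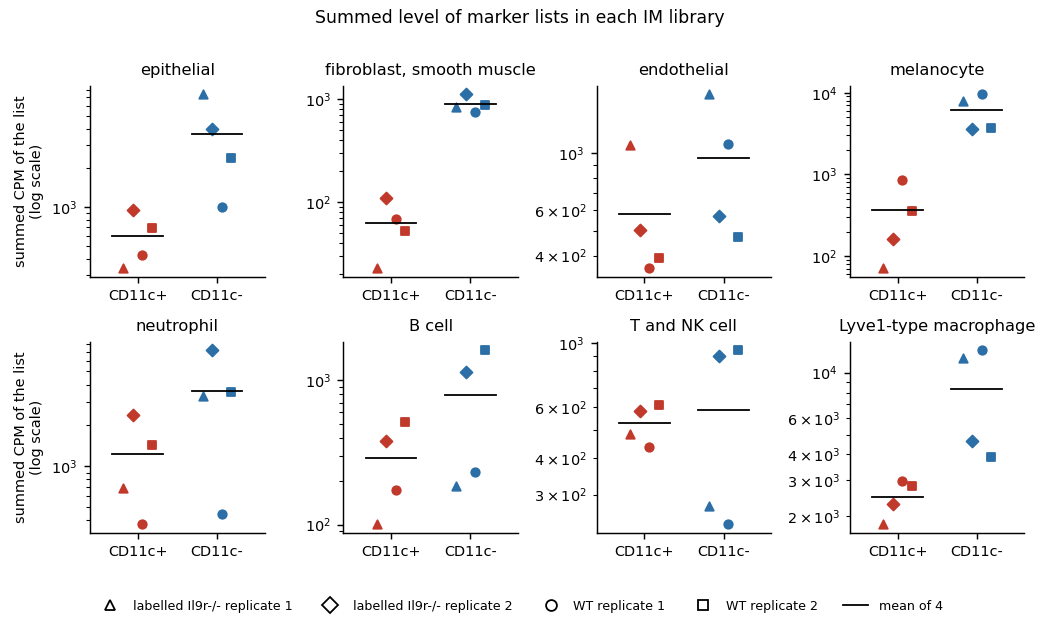
Summed CPM (log scale) of 8 marker lists in each IM library, CD11c+ IMs left and CD11c- IMs right; symbols give the labelled genotype and replicate and lines the mean of 4 libraries. Melanocyte sums are 71.7 to 865 CPM in CD11c+ IMs and 3585 to 9549 CPM in CD11c- IMs, and the Lyve1-type sums of CD11c- IMs differ between replicate 1 and replicate 2.

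Of 20 cell cycle genes 0 were higher and 1, Mcm2 (-0.63), was lower. Of 19 glycolysis and hypoxia genes 2 were higher and 4 lower (median 0.01), and of 22 interferon response genes 4 were higher and 1 lower (median 0.05). With scaling by library totals alone the medians of these lists were -0.24 and -0.20, beside a shift of -0.25 in the median of all genes. Of 20 immediate early genes, which respond to handling of cells, 2 were higher, by at most 0.48 on the log2 scale, and 2 lower. The immediate early counts lie near the shares over all genes tested (9.35% higher and 9.99% lower). Against these shares the glycolysis and hypoxia list had more lower members. The interferon list had more higher and fewer lower members, and the cell cycle list fewer of both. These departures were not tested. Egr1 had 1085, 1006, 762 and 896 CPM in CD11c+ IMs, against 2751, 1571, 1788 and 1249 CPM in CD11c- IMs (log2 fold change -0.89 ± 0.17 (SE), adjusted p = 0.0144), and Klf2 was lower by a like amount (-0.83). Egr1 missed the threshold without WT replicate 1 (adjusted p = 0.0644) and without the pair labelled Il9r-/- replicate 1 (0.0588), and in these fits no member of the list passed. Of 12 monocyte genes 3 were lower, Ly6c1 (-1.57) and Ly6c2 (-1.44) among them, and 3 higher, Treml4 (1.03), Ace (0.88) and Spn (0.84). Ly6c2 passed at an adjusted p of 0.0477, was higher in the WT replicate 1 pair (log2 difference 0.15), and missed the threshold without WT replicate 2 (0.151) and without the pairs labelled Il9r-/- replicate 1 (0.135) or 2 (0.156). Of 19 C-type lectin genes 6 were higher, and 2 without WT replicate 2, with Clec9a, the Langerin gene Cd207 (3.97) and the dectins Clec4n (2.04) and Clec7a (1.35) among them. Of 13 iron and heme genes 3 were higher, Fth1, Ftl1 (0.90) and Slc48a1 (0.62), and 3 lower, Lcn2 (-1.60), the transferrin receptor Tfrc (-1.45) and the iron exporter Slc40a1 (-0.78).

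The difference between the populations was compared between genotypes by an interaction term. edgeR called 0 of 14528 genes (0%), with 319 genes at an unadjusted p under 0.05 (2.20%), and DESeq2 called 24. Leaving out a pair leaves 1 pair in its genotype, and counts of this difference from such fits are not given. With 2 pairs per genotype the fit had 2 residual degrees of freedom. Ccl17 differed by 5.96 in the pairs labelled Il9r-/- and 5.88 in WT pairs, and Ccl22 by 5.85 and 5.49 in the same pairs. Arg1 had 0.84 in the pairs labelled Il9r-/- and 1.28 in WT pairs, Itgax had 3.26 and 3.30, and H2-Ab1 had 1.18 and 1.08. The melanocyte list had medians of -5.85 in the pairs labelled Il9r-/- and -3.39 in WT pairs. Mlana, a melanosome protein, had the lowest unadjusted p among genes with a more negative value in the pairs labelled Il9r-/- (-5.19, against -3.31 in WT pairs, unadjusted p = 0.000183, adjusted p = 1), with Slc24a5 and Msln next. Wdfy1, Cyp4b1 and Rhobtb2 had the lowest among genes with a more positive value. Rhobtb2 had 0.83 in the pairs labelled Il9r-/- and -1.0 in WT pairs.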

How the data were processed

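RNA from sorted AMs, CD11c+ IMs and CD11c- IMs was made into cDNA with SMART-Seq v4 and into libraries with Nextera XT. By their methods and processing notes, the authors checked reads with FastQC 0.11.5, mapped them to mm10 with STAR 2.5, assigned unique reads to refGene genes by featureCounts of Subread 1.5.1, and dropped genes of low CPM. The deposited counts per gene and library were used, 14648 genes in all. The same table holds log2 FPKM values made by the authors, and the comparisons the authors deposited, given as a signed fold score, a log2 fold change, a p-value and an FDR, none of which entered a test. In those comparison columns the names of the IM populations run opposite to the count columns, and the populations follow the count columns here, whose Itgax values are given per library. The kit does not mark strand although the counting used a strand setting, so that overlapping and antisense genes cannot be told apart, and families of near-identical genes (Ear1 and Ear2, Cd209 genes, Ftl1, H2 genes) share reads.

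The comparison was fitted in R 4.3.3 with edgeR 4.0.16 (robust quasi-likelihood, TMM over the 8 IM libraries, factors 0.8916 to 1.137), with a term for each pair and for the population. Genes with at least 0.5 CPM in 2 of the 8 libraries were kept (14528, with 120 left out). The biological coefficient of variation was 0.3116 and residual degrees of freedom were 3. Libraries of the same title prefix deviated together from the means of their population and genotype (correlation across genes of 0.122 in the pairs labelled Il9r-/- and 0.331 in WT pairs). From the means of the population alone the correlations were 0.104 to 0.348. Each CD11c+ library correlated best with the CD11c- library of its own prefix, so the pairing was kept. The margin was small for the label Il9r-/-: 0.104 against 0.0653 for another prefix in replicate 1, and 0.216 against 0.146 in replicate 2. Log2 fold changes come from this fit, and printed CPM use TMM factors over all 12 libraries. Standard errors are the log2 fold change divided by the square root of F. The 12 libraries held 26988617 to 42020021 counts. Separate animals are not stated, so that the p-values measure only the spread between these libraries, and genes of few counts in a population, such as Scgb3a1 in CD11c+ IMs, carry counting error besides. On simulated data for this comparison (14090 genes in the fit) the test recovered 72% of changes of 1 and 97% of changes of 2 on the log2 scale. There were 14 false calls among 13890 unchanged genes, a count to set beside the genes recovered and not the unchanged genes alone. The interaction test made 2 false calls, as no difference between genotypes was simulated. Only 100 genes were changed by each size, as many up as down, all at a mean of at least 5 CPM. Many more genes were called in the data, and larger changes, genes of lower level and effects of replicate number were not simulated. The simulated rates therefore need not hold for the data.

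The members and the gene lists were chosen with earlier results of these data known, and a list is described by its counts and median alone. Named genes were the sorting markers and Il9r, the 10 largest changes in each direction with a mean of at least 20 CPM and 1 direction in all 4 pairs, the 5 most abundant in each direction with an absolute log2 fold change of at least 1, up to 4 passing members of each list by mean CPM, and the 3 in each direction with the lowest p of the genotype difference at a mean of at least 5 CPM (159 genes). Further list members and the neighbours of Ccl22 were named after their values were seen. 19 entries of the lists were not tested, and some named genes are not reported here. Promoters came from RefSeq (GRCm38.p6). Alternatives were fits without the pair term or with all 12 libraries, and relative log expression factors or library totals alone. Others were DESeq2 1.42.0, limma 3.58.1 (voom), no filter or a mean of at least 5 CPM, and each pair left out. The pairs of each genotype were also read from the interaction fit of all IM libraries. A like fit by replicate number was chosen after seeing the data. Descriptive tables used Python 3.11.15 with numpy 2.4.6 and pandas 2.3.3, and matplotlib 3.10.9 drew the plots.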

Additional observations from a re-analysis of the deposited data

Results flagged for a closer look

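Among the named genes reported here, 10 had 1 pair whose log2 difference, CD11c+ over CD11c- IMs, lay apart from the other 3 by Dixon's criterion (0.829 for 4 values), which chance alone meets in about 1 of 20 groups. The named genes numbered 159, those not reported here included, so that a count of 10 lies near that share. The pair labelled Il9r-/- replicate 1 stood apart for 5 genes. Its difference was 3.56 for Apol7c (5.07 to 5.24 in the others), -9.66 for Dcn (-5.28 to -5.14), -7.22 for Cyp2f2 (-5.00 to -4.60), -8.07 for Enpp2 (-4.49 to -4.00) and -7.26 for Gsta4 (-4.42 to -3.89). The pair labelled Il9r-/- replicate 2 had 5.68 for H2-M2 (3.69 to 3.98), 0.059 for Spi1 (0.68 to 0.79), 0.17 for Npc2 (0.69 to 0.74) and 0.075 for Clec4a3 (0.56 to 0.66). WT replicate 2 had 1.15 for Cd63 (0.57 to 0.67). Rhobtb2 took opposite directions in the genotypes in every pair, 0.83 in the pairs labelled Il9r-/- and -1.0 in WT pairs, a difference of 1.84 whose adjusted p was 1.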

How the results depend on the processing

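Of the 153 named genes that passed, 0 reversed direction in any of 17 alternatives. Most were named because they passed in the same counts that the alternatives refit, so that reversals were unlikely beforehand. The pairing mattered most to the higher genes: without the replicate block 550 were higher and 970 lower, and with all 12 libraries as 6 groups and no block 729 were higher. Scaling by library totals alone gave 624 higher and 2273 lower genes, so that the share of higher genes among those called was 21.5%, against 48.3% with TMM, with the median of all genes moved by -0.25. DESeq2 gave 2532 lower genes and 24 genes with a difference between genotypes. Leaving out 1 pair at a time gave 565 to 962 higher and 671 to 1107 lower genes, and 0 to 20 genes with a difference between genotypes. In the interaction fit of all 8 IM libraries, the pairs labelled Il9r-/- gave 261 higher and 384 lower genes and the WT pairs 172 and 224. These fold changes rest on 2 pairs each, and the spread between libraries was estimated over all 8. In a like fit by replicate number, chosen after seeing the data, the replicate 1 pairs gave 1331 higher and 1117 lower genes. Of these 929 and 833 were shared with those of all pairs. The replicate 2 pairs gave 483 and 377, with 434 and 336 shared. The cause was not tested. The named genes still passing numbered 89 without the block, 127 with library totals and 101 to 126 with 1 pair left out. They numbered 53 for the WT pairs and 69 for the pairs labelled Il9r-/-, and 123 and 81 for the replicate 1 and replicate 2 pairs. The other alternatives (relative log expression factors, voom, no filter, a mean of at least 5 CPM, 12 libraries with the block) kept both counts within 1.5 times. With 12 libraries and the block H2-Ab1 (log2 fold change 1.10, against 1.13 with 8), Arg1 (0.95, against 1.06), Cd74, H2-Aa and H2-Eb1 missed the threshold, with adjusted p of 0.0750, 0.0944, 0.145, 0.155 and 0.0844. Depth limits the genes of few counts, and what it limits beyond them was not tested.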
